A study of Mus musculus with 36 samples.

Results

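The AP site landscape of heart was taken from the 2 AP libraries of heart, among 12 AP libraries whose other tissues are brain, bone marrow, sperm, liver and the mononuclear cells of peripheral blood (PBMCs). An AP site (abasic site) is a place in DNA where the base is lost while the sugar-phosphate backbone remains. The labels name 2 male C57BL/6J mice aged 24 months as the source of all 6 tissues, with no allele or treatment given, and the other 5 tissues served as the comparison. Each tissue had 2 libraries. SSiNGLe-AP recorded each AP site as a single nucleotide with its strand, and every such nucleotide is called a position here. Heart 1 held 824906 positions and heart 2 held 693132, of 8824020 in the 12 libraries. Heart DNA came from ground whole organ, so every cell type of the heart contributed. DNA was isolated with a TIANamp kit except for sperm, which had a sperm DNA kit. Marker genes of RNA cannot check a tissue label in DNA data, and the number of cells behind a library is not given, so the values are shares of a library and not lesions per cell.

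AP sites arise when a purine or pyrimidine base falls off spontaneously, purines more readily, or when a DNA glycosylase removes a damaged base as the first step of base excision repair. The endonuclease Apex1 then cuts the backbone, a polymerase fills the gap, and the ligase Lig3 with its partner Xrcc1 seals it. Heart muscle cells hardly divide in adult life and rely on fatty acid oxidation. Their contractile unit, the sarcomere, is built from myosin, actin, troponins and the giant protein titin.

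The bases at heart AP positions were read in the RefSeq promoter sequences of GRCm38 (250 bases before to 50 after a gene start), the only sequence used here, on the strand that the files give for the position. The sarcomere genes are shown first because they are the heart's most characteristic genes. Of the 39 genes in the sarcomere list, 32 had a promoter sequence, and 12 heart positions fell in these promoters, in 10 genes. Each line gives the gene, the library, the stretch in GRCm38 coordinates and the strand that the files give for the position, read 5′ to 3′ with 10 bases on each side. Capitals mark the recorded position, which is the last capital, and the 2 bases before it.
Acta1, heart 2, chr8:123894984-123895004, minus strand: ggggcagaCAGctggggatac
Ldb3, heart 2, chr14:34588727-34588747, plus strand: tacactggGCCcgcctgccca
Mybpc3, heart 1, chr2:91118086-91118106, minus strand: ccccctccCCAgccctgctta
Myh6, heart 1, chr14:54966620-54966640, plus strand: gcctgctgCCTaaatttggag
Myl2, heart 1, chr5:122093024-122093044, plus strand: ttcctcagCGAaggggctgca
Smpx, heart 2, chrX:157698949-157698969, plus strand: taacgtagCCAcctccaggct
Smpx, heart 1, chrX:157698984-157699004, minus strand: aggcttgaCCGtgtggaaagc
Synpo2l, heart 2, chr14:20668421-20668441, minus strand: cacagttgGGGgagggaaaat
Tnni3, heart 1, chr7:4522599-4522619, plus strand: cccagctcCCTcctccctcaa
Tpm1, heart 1, chr9:67049333-67049353, plus strand: ctccgcccCGTgccccctcct
Tpm1, heart 1, chr9:67049426-67049446, plus strand: tatatatgGGGacccgagcct
Ttn, heart 1, chr2:76982509-76982529, minus strand: acctcgccTCGggtgtaggga
At 8 of these 12 positions the recorded base was a purine, and at 11 the base that stood 2 before it was C or G. Of all promoter bases 23.2% were A, 26.7% G and 26.7% C, and 12 positions are too few to show a preference for purines. The position in Synpo2l was also seen in another AP library, and the other 11 were seen in 1 library each. The lesion in the Ttn promoter stood 28 bases after the gene start on the non-template strand, that of Myh6, which codes for the fast cardiac myosin heavy chain, 23 bases before the start on the template strand, and that of Mybpc3, a myosin binding protein, 48 bases before it on the template strand.

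The second set is shown because both heart libraries shared these nucleotides. The heart libraries had 2507 positions in common, which was 0.362% of the smaller library, and 8 of these lay in promoters. A stretch of 21 bases could be read for 7 of them.
C87436, chr6:86438472-86438492, plus strand: tagagttgCGAggcaggtaag
Eif2a, chr3:58525631-58525651, minus strand: cgcgatcgGCGgctgccggtg
Gm15091, chrX:149941616-149941636, minus strand: acactcccCTAaaggcgtcct
Gm33862, chr11:3136831-3136851, plus strand: tagtttccCCAgatctaaagt
Gm36589, chr17:13328057-13328077, minus strand: ctcttgggGCAtgaggcctgt
Gm46492, chr14:8464957-8464977, plus strand: gacagatcCGTtcctccctat
Lipn, chr19:34067121-34067141, minus strand: atggggaaGCAgactgtgttc
Here 6 of 7 recorded bases were purines, and all 7 had C or G at the base 2 before. The position near Gm33862, inside the span of Sfi1 on chromosome 11, was present in 7 of the 12 AP libraries, whereas 6 of the 7 were in no library outside heart. Heart libraries shared 0.225% to 0.444% of the smaller library's positions with each of the other 10 libraries, a range that held the value for the pair of heart libraries.

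Over all promoters 5867 positions could be read in heart 1 and 4553 in heart 2. The recorded base was a purine at 76.6% and 75.5% of the positions, and at 71.1% to 76.6% in the other 10 libraries. Adenine alone took 41.1% (95% exact binomial interval 39.8% to 42.4%) in heart 1 and 40.9% (39.4% to 42.3%) in heart 2, whereas 23.2% of the promoter bases were adenine. The base that stood 2 before was C or G at 90.1% and 90.2% of the positions, and at 86.8% to 91.1% in the other 10 libraries. Among the words of 4 bases from 2 before to 1 after the position, CCAG was 7.98 and 8.65 times as frequent as in the promoters as a whole, CCAA 7.01 and 8.42 times, and CGAG 7.14 and 8.22 times. In the other 10 libraries the ratio for CCAG ran from 6.14 to 8.20, for CCAA from 5.36 to 8.60 and for CGAG from 4.47 to 8.06. Whether the recorded nucleotide is the lost base itself or its neighbour, and whether the strand column names the strand with the lesion, is not given in the sources used here. On the opposite strand the same positions would read as the complementary bases.

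The adenine share was the only one of 10 genome measures in which the groups did not overlap. The other 10 libraries ran from 36.3% (brain 2) to 40.3% (bone marrow 2), with a mean of 38.1% ± 1.25 (SD, n = 10), against 41.0% ± 0.171 (SD, n = 2) for heart. Both heart libraries were above all others, by 2.89 percentage points on average, and p was 0.0152 in a two-sided exact permutation test over libraries, the smallest that 66 arrangements allow. After Benjamini-Hochberg adjustment over the 10 measures p was 0.152 by the same exact permutation test, so the difference did not pass. The interval of bone marrow 2 (39.1% to 41.4%) held both heart values. Both heart intervals also overlapped those of PBMC 1, PBMC 2 and sperm 1, and that of heart 2 overlapped those of brain 1 and both liver libraries. The guanine share at the position was 35.5% and 34.7% in heart and 34.1% to 37.3% elsewhere, and 10 bases before the position the adenine share was 22.1% and 22.4% in heart and 22.2% to 25.2% elsewhere. These intervals cover counting error only.

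**Figure D1:**
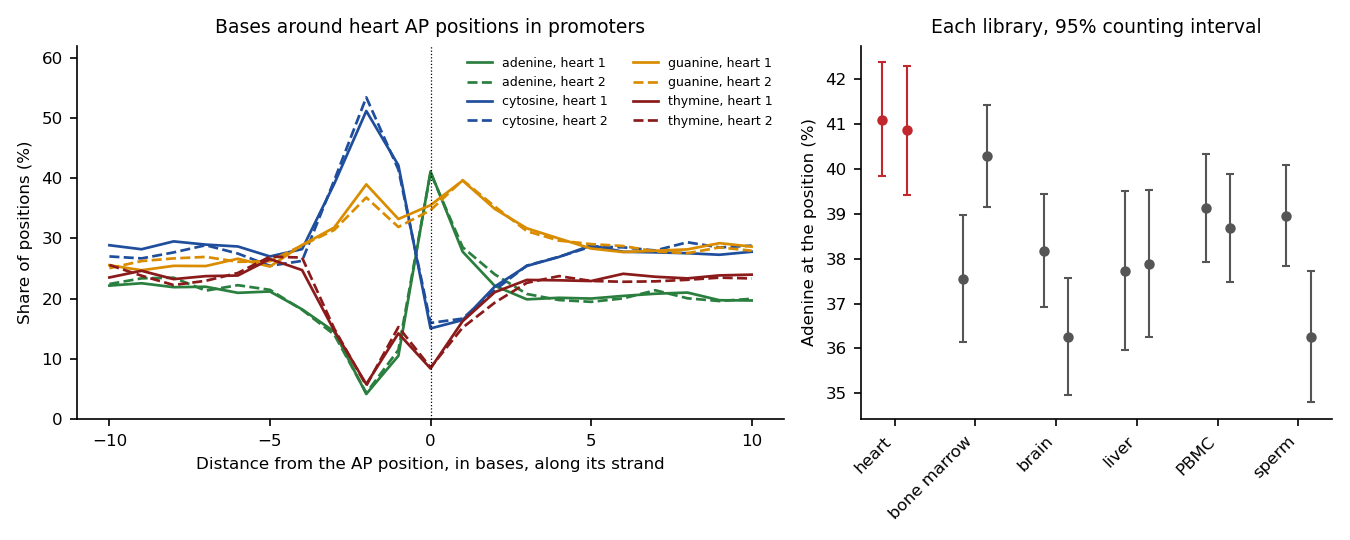
The left panel plots the share of each base in percent (y axis) against the distance in bases from the AP position along its strand (x axis) for heart 1 (solid) and heart 2 (dashed), in promoter sequence. Adenine reaches 41.1% and 40.9% at the position and cytosine 51.1% and 53.4% at the base 2 before it. The right panel gives the adenine share at the position for each library with its 95% exact binomial interval, and both heart libraries (red) lie above the other 10, with intervals that overlap those of bone marrow 2, both PBMC libraries and sperm 1.

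Where AP sites lie relative to genes was compared next. Genes held 61.5% and 60.7% of the heart positions, against 59.6% to 62.4% in the other libraries. Genes over 500 kb held 7.81% and 8.07% (7.29% to 8.40% elsewhere). Gene-dense windows, which are windows of 100 kb with 3 or more protein-coding genes, held 19.3% and 18.5% (17.5% to 20.8% elsewhere). In all 3 measures the heart libraries lay inside the range of the others, and the difference of means was under 0.5 percentage points. The adjusted p was 0.833 for each by the exact permutation test. The density, given as LPKM (lesions per kb of gene length, scaled to the library total as RPKM is), was lower with greater gene length in heart, from 0.683 and 0.642 over genes of 1 to 10 kb to 0.385 and 0.397 over genes of 500 kb or more. The other libraries spanned 0.596 to 0.728 and 0.359 to 0.413 in these classes and overlapped with heart in both.

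Gene starts were enriched for AP sites in heart. Positions within 1 kb of the start of a protein-coding gene made up 2.28% and 2.16% of the heart libraries, with 2.02% (liver 1) to 2.63% (bone marrow 1) in the others. The heart mean of 2.22% ± 0.0837 (SD, n = 2) stood 0.161 percentage points below the mean of the other libraries, 2.38% ± 0.186 (SD, n = 10), with an adjusted p of 0.833 by the exact permutation test. Relative to the density 5 to 10 kb away, the 200 bases before the start held 1.70 and 1.58 times as many positions and the 600 bases after it 1.68 and 1.61 times. Both ratios overlapped with the other libraries, which gave 1.56 to 1.85 and 1.52 to 2.01.

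The strand of the lesions differed between the sides of the start. Template and non-template follow the strand column of the files, whose convention is not given in the sources used here. In the 200 bases before the start, 47.1% and 45.4% of the heart positions lay on the template strand, the strand that RNA polymerase reads. In the 600 bases after it 52.8% and 52.9% did. The other libraries gave 41.3% to 50.7% before the start and 51.1% to 54.9% after it, so heart lay inside both ranges. Over the first 2 kb of genes the template share in heart was 51.1% (95% exact binomial interval 50.3% to 51.8%) and 51.9% (51.0% to 52.7%). The other libraries gave 49.6% (sperm 1) to 54.6% (liver 1), and the mean difference of heart was 0.0735 percentage points (adjusted p = 0.939, exact permutation test). Inside whole genes the template strand held 49.1% (49.0% to 49.3%) and 49.5% (49.3% to 49.7%) of the heart positions, below 50% in both libraries by more than counting error. The other libraries spanned 48.9% to 51.0%, and the adjusted p of the difference was 0.833 by the exact permutation test.

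Gene ends showed a rise inside the gene and a drop at the end. The stretch from 1000 to 400 bases before the end held 1.56 times the flanking density in both heart libraries. The first 200 bases after the end held 1.13 and 1.16 times. In the other libraries these ratios were 1.52 to 1.63 and 1.05 to 1.21, so heart lay inside both ranges. Positions within 1 kb of gene ends made up 2.17% and 2.14% of the heart libraries (2.01% to 2.29% elsewhere, adjusted p = 0.833, exact permutation test). On the template strand the ratio for the stretch from 1000 to 400 bases before the end was 1.52 and 1.59 in heart. In the other libraries it was 1.59 to 1.65. Both heart libraries were below all 10, but heart 2 (1.5906) was nearly level with the lowest of them, liver 2 (1.5915). The p of 0.0152 for this ratio was the smallest the exact permutation test allows, and adjusted over the 28 profile comparisons it was 0.377.

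**Figure D2:**
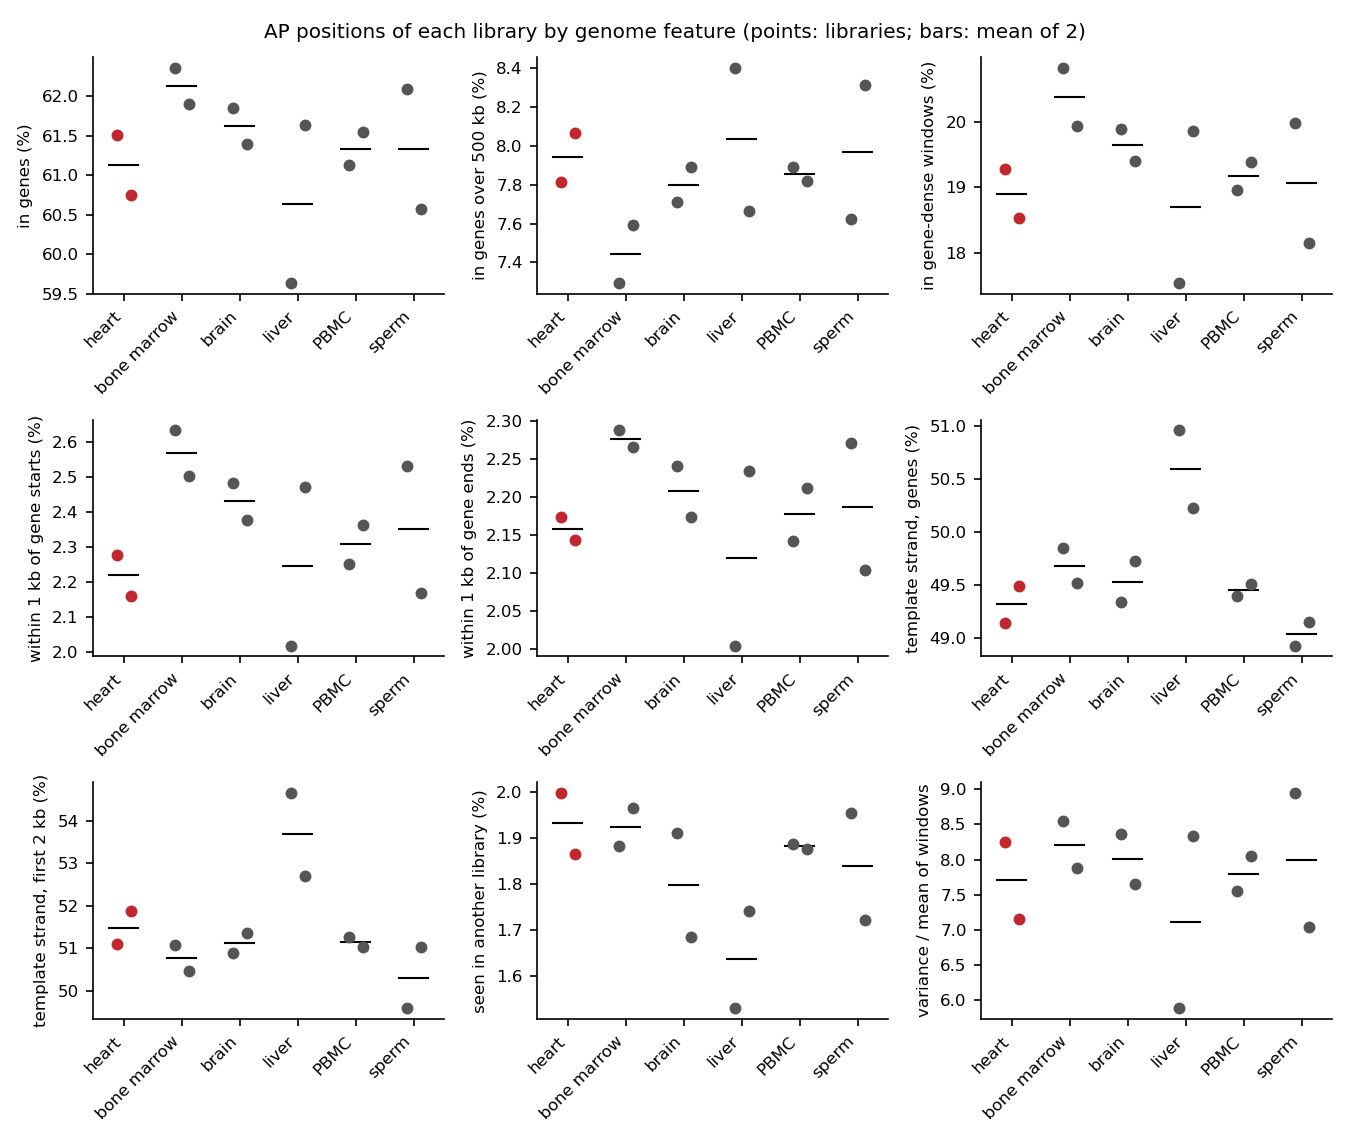
Each panel plots 1 measure for the 2 libraries of each tissue as points, with a bar at their mean; the y axes give percent of positions, or the variance to mean ratio of counts over 100 kb windows in the last panel, and do not start at 0. The heart points (red) fall inside the range of the other 10 libraries except that heart 1 has the highest share of positions seen in another library, 2.00% against at most 1.96%.

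**Figure D3:**
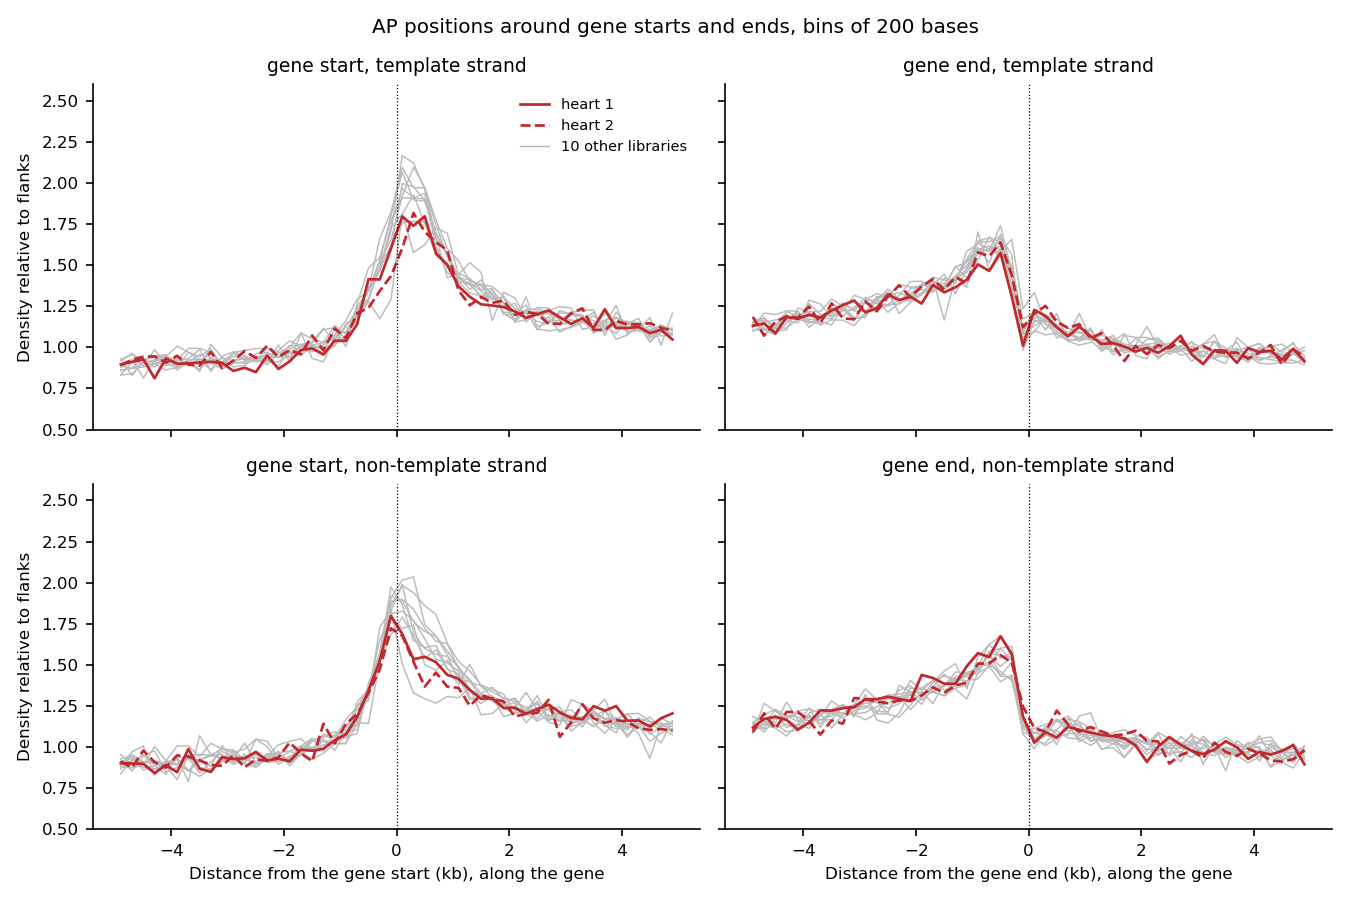
The density of AP positions in bins of 200 bases relative to the density 5 to 10 kb away (y axis) is plotted against the distance in kb from gene starts (left) and gene ends (right), for the template strand (top) and the non-template strand (bottom). The heart lines (red) rise at the start on both strands, to 1.70 and 1.58 over the 200 bases before it with strands joined, and drop at the gene end. At the start they lie within the spread of the 10 other libraries (grey).

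The 21 chromosomes received like shares of positions in heart and in the other tissues. No chromosome differed after adjustment over the 21 (adjusted p of 0.924 for each, exact permutation test). Chromosome 13 came closest, with 4.82% and 4.84% in heart against 4.69% to 4.83%, and an unadjusted p of 0.0758 by the exact permutation test. Chromosome 11 was the densest in heart per Mb, at 123% and 120% of the autosomal mean, and chromosome 3 the sparsest autosome, at 83.0% and 85.5%. Chromosome X held 1.62% and 1.73% of the heart positions, which per Mb was 24.3% and 26.0% of the autosomal density, and the other libraries gave 23.7% to 27.6%. Chromosome Y stood at 4.61% and 4.91% of the autosomal density in heart and 4.20% to 6.79% elsewhere. Male cells carry a single X beside paired autosomes, and the part of copy number in these densities was not tested.

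Positions were spread unevenly over the genome. At an equal depth of 460719 positions, the variance to mean ratio over 100 kb windows was 8.26 and 7.15 in heart and 5.88 to 8.95 in the other libraries (adjusted p = 0.939, exact permutation test). The densest heart window, chr11:3100001-3200000, held 1195 and 938 positions, or 1449 and 1353 ppm (positions in the window per 1000000 positions of the library). It contains Sfi1, which codes for a centrosomal protein, and the pseudogene Pisd-ps1. The other libraries held 1163 to 1588 ppm there. The next, chr1:88200001-88300000 with Mroh2a and Hjurp and the Ugt1a cluster of glucuronidation genes, held 438 and 414 ppm (376 to 459 elsewhere). Both ranges included the heart values. Among genes of at least 10 kb the densest in heart were Sfi1, with 17.9 and 16.8 LPKM (14.3 to 19.5 elsewhere), Hjurp, a chaperone of the centromeric histone, with 6.13 and 6.53 LPKM, Mroh2a with 5.80 and 5.35, C130026I21Rik with 4.66 and 4.34, and Pisd-ps2 with 4.33 and 3.27. Reads of near-identical copies may be placed on any of them, so the densities of Sfi1, the Pisd pseudogenes and the chromosome 1 genes of this group are uncertain. The median gene of at least 10 kb had 0.501 and 0.496 LPKM in heart. The ninth densest heart window, chr2:76700001-76800000, overlaps the end of Ttn.

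Gene by gene, no gene passed in heart. Of 41374 genes tested with edgeR's quasi-likelihood test for heart against the mean of the other 5 tissues, 0 had an adjusted p under 0.05 (0% called). DESeq2 also called 0. The smallest adjusted p with edgeR was 0.829. At an unadjusted p under 0.05, 1230 genes (2.97%) were higher and 464 (1.12%) lower in heart with edgeR, 960 and 599 without TMM scaling, and 53 and 77 with DESeq2. With all other libraries as 1 group edgeR gave 869 and 870, so the split between higher and lower depended on the scaling and the grouping. Against each single tissue edgeR called 0 genes (0% called). At an unadjusted p under 0.05, 946 (2.29%) were higher and 644 (1.56%) lower than in bone marrow, and 636 (1.54%) higher and 754 (1.82%) lower than in brain. Against liver 1045 (2.53%) were higher and 511 (1.24%) lower, against PBMCs 644 (1.56%) and 630 (1.52%), and against sperm 786 (1.9%) and 582 (1.41%). These 5 comparisons share the heart libraries. For genes with a mean of at least 20 positions the median standard error of the log2 difference was 0.193, which is the precision these libraries give. Of these 5440 genes, 187 (3.44%) were higher and 62 (1.14%) lower at an unadjusted p under 0.05. In 63 of them (1.16%) both heart libraries lay above all others, and in 71 (1.31%) below. Over all 20261 genes of at least 10 kb the counts were 274 (1.35%) and 262 (1.29%).

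Since no gene passed, the genes of smallest p are given as values only. Ttn, the gene of the giant sarcomere protein titin (gene ID 22138, chr2:76703980-76982557, minus strand, 279 kb), was among the 8 genes of smallest p with more positions in heart. It held 226 positions in heart 1 and 209 in heart 2. This was 0.984 and 1.08 LPKM, against 0.770 to 1.03 with a median of 0.840 in the other 10 libraries. Heart 2 was above all of them and heart 1 was not. The log2 difference was 0.32 ± 0.10 (SE), with an unadjusted p of 0.00201 by edgeR, and the adjusted p was 0.9999 for this and every other gene named here. The lesions lay on both strands, with 124 and 113 on the template strand and 102 and 96 on the other. Single-strand breaks of the same tissue, mapped separately, gave 0.651 and 0.699 LPKM over Ttn in heart and 0.603 to 0.793 elsewhere.

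The heart values of Ttn were highest from 200 kb after its start. In the stretch from 220 to 240 kb after the gene start, heart held 1.88 and 1.80 LPKM and the other libraries 0.652 to 1.61. From 200 to 220 kb it held 1.27 and 1.51, against 0.805 to 1.26. These were the only bins of 20 kb among 14 in which the groups did not overlap. From 200 to 220 kb heart 1 and heart 2 held 21 positions each, and PBMC 2, the highest of the others, held 22. Bins of other genes were not counted, so no share of such bins can be given. In the first 200 kb both heart libraries lay within the range of the others except for 2 bins in which heart 2 was above it, from 20 to 40 kb and from 120 to 140 kb. The window chr2:76700001-76800000, at this end of the gene, held 132 and 150 ppm in heart and 84.7 to 126 elsewhere, with a log2 difference of 0.39 ± 0.15 (unadjusted p = 0.0127, edgeR). The bins were described after the gene's values were known.

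**Figure D4:**
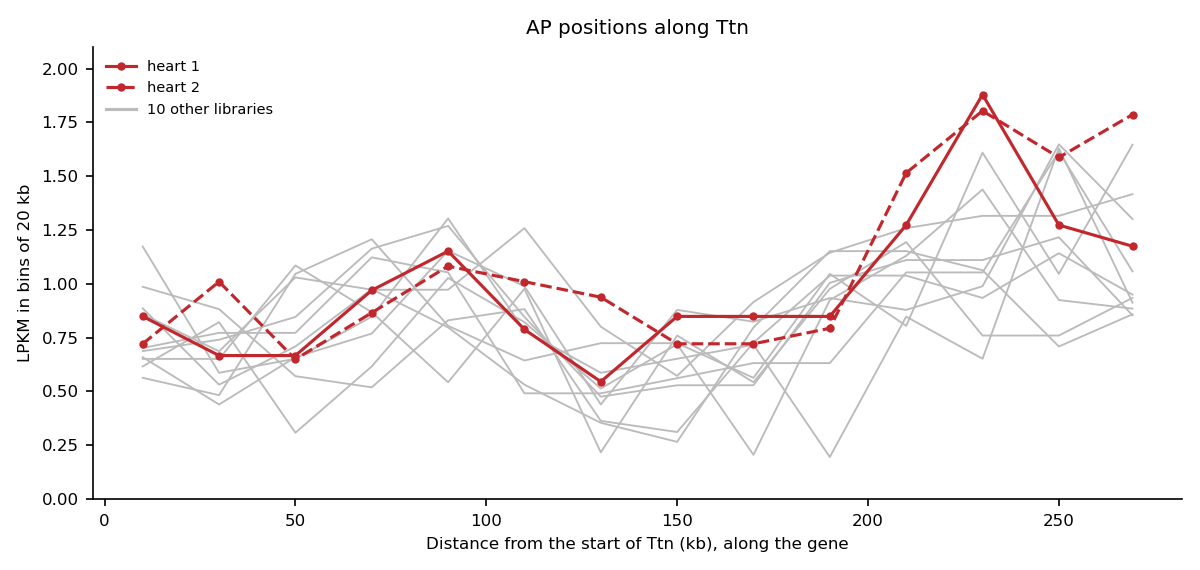
The density of AP positions (LPKM, y axis) is plotted in bins of 20 kb against the distance in kb from the start of Ttn along the gene (x axis), for heart 1 (solid red), heart 2 (dashed red) and the 10 other libraries (grey). Up to 200 kb heart runs among the others, except that heart 2 is above all 10 at 20 to 40 kb and at 120 to 140 kb. Both peak at 1.88 and 1.80 between 220 and 240 kb, above all 10.

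Myh11, the myosin heavy chain of smooth muscle and thus of vessel walls, had 69 and 57 positions in heart. Its LPKM was 0.857 and 0.842, above the other libraries' 0.494 to 0.790, with a log2 difference of 0.50 ± 0.16 (unadjusted p = 0.00207, edgeR). Wwtr1, which codes for the Hippo pathway coactivator TAZ, had 0.595 and 0.732 LPKM against 0.235 to 0.689, a log2 difference of 0.52 ± 0.17. The other genes of this group were Rbm47, an RNA binding protein (log2 difference 0.49), Chsy3, a chondroitin synthase (0.46), Slc35f4 (0.43), Gm5087 (0.71) and 4930467E23Rik (0.81). In 4930467E23Rik, Gm5087, Rbm47, Chsy3 and Myh11 both heart libraries lay above all others. When every library was thinned to equal depth, the log2 difference of 4930467E23Rik came to 0.16.

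Huwe1, an X-linked ubiquitin ligase, had the smallest p among genes with fewer positions in heart and a mean of at least 20, with 15 and 7 positions. Its LPKM was 0.135 and 0.0750 against 0.162 to 0.355, a log2 difference of -1.07 ± 0.30 (unadjusted p = 0.000349, edgeR). It was -1.61 without heart 1 and -0.76 without heart 2. Dzip1l, 4930511A08Rik and Eif3h, a subunit of translation initiation factor 3, were also below all others in both heart libraries. Tmtc1, Wls, the carrier of Wnt proteins, and Agap3 overlapped with the other libraries. For Tmtc1 the log2 difference was -0.43, and -0.65 without heart 1. The log2 differences of the genes named here ran from -1.07 to -0.43.

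Windows of 100 kb gave the same count of 0. For heart against the other 5 tissues 0 of 26003 windows passed (0% called), with 589 (2.27%) higher and 486 (1.87%) lower at an unadjusted p under 0.05 by edgeR, and DESeq2 called 0. Both heart libraries lay above all others in 334 windows (1.28%) and below in 254 (0.977%). The window of smallest p with more positions was chr4:55500001-55600000, which holds Klf4, a transcription factor of vessel lining and stem cells. It had 54 and 47 positions, or 65.5 and 67.8 ppm, against 32.6 to 51.5, and the log2 difference was 0.73 ± 0.18 (adjusted p = 0.445, edgeR). The others were chr1:163100001-163200000, whose log2 difference of 0.75 came to 0.38 without heart 1, chr14:41700001-41800000, chr4:74200001-74300000 with Frmd3 and Kdm4c, and chr6:147600001-147700000 with Ccdc91.

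Against bone marrow alone 1 window of 26003 passed (0.00385% called). At an unadjusted p under 0.05, 641 (2.47%) were higher and 677 (2.6%) lower. The window that passed was chr14:21400001-21500000, which holds part of Adk, the adenosine kinase gene, and of Kat6b, a histone acetyltransferase. Heart had 20 and 18 positions there, or 24.3 and 26.0 ppm. The log2 difference to bone marrow was -1.31 (adjusted p = 0.0357, edgeR), and with the replicate number as a block the adjusted p was 0.0508. The other 10 libraries held 42.3 to 65.6 ppm, so both heart libraries were the lowest of the 12. Against brain, liver, PBMCs and sperm edgeR called 0 windows, with smallest adjusted p-values of 0.334, 0.301, 1 and 0.793. At an unadjusted p under 0.05, 592 (2.28%) were higher and 562 (2.16%) lower than in brain, and 590 (2.27%) and 654 (2.52%) than in liver. The counts were 508 (1.95%) and 490 (1.88%) against PBMCs, and 511 (1.97%) and 502 (1.93%) against sperm.

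The window chr17:39800001-39900000 holds Rn18s-rs5 and AY036118, sequences related to ribosomal RNA. Heart had 195 and 130 positions there, or 236 and 188 ppm, against 195 (liver 1) to 489 (bone marrow 1) elsewhere. The 2 libraries of a tissue differed widely in liver (195 and 432 ppm), bone marrow (489 and 306) and sperm (411 and 259). Brain and PBMC libraries differed less. Reads of near-identical copies may affect this window too, which was not tested. The log2 difference of the window was -0.62 ± 0.16, with an adjusted p of 0.445 by edgeR. Without liver 1 it was -0.72. Liver 1 was the only other library that overlapped with heart, so leaving it out removes the overlap by itself. Liver 1 also stood apart in other measures, with 0.929% of its positions counted more than once, the highest of the 12, against 0.357% and 0.490% in heart, and the part of that difference in this result was not tested. The remaining windows of smallest p with fewer positions were chr3:159800001-159900000 at Wls, chr3:138300001-138400000 at the Adh6 genes, and chr17:76600001-76700000, which holds no annotated gene.

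Gene lists of the heart and of other tissues were then read as groups. The 15 lists held 360 genes, all of which were tested, and 0 passed. At an unadjusted p under 0.05, 10 (2.78%) were higher and 6 (1.67%) lower in heart, close to the 2.97% and 1.12% of all genes. The median log2 difference was 0.04 over the 360 genes and 0.08 over all genes tested.

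Of the 39 sarcomere genes, Ttn was the only one higher at an unadjusted p under 0.05, and Xirp1, a protein of the intercalated disc, the only one lower. Their summed density was 0.683 and 0.663 LPKM in heart and 0.626 to 0.712 in the other libraries. Fhod3, a formin that assembles actin in the sarcomere, held 252 and 184 positions, with 0.719 and 0.624 LPKM and a log2 difference of 0.07 ± 0.10. Nebl, which codes for the thin filament protein nebulette, had 0.433 and 0.456 LPKM (0.391 to 0.554 elsewhere). The myosin genes Myh6 and Myh7, which lie side by side, had 13 and 18 positions and 18 and 17 positions, or 0.604 and 0.995 LPKM and 0.911 and 1.02 LPKM, and overlapped with the others. Short genes of the group held few positions, such as Actc1, cardiac actin, with 5 and 2, so that a change in them was mostly not detectable at this depth.

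Among 20 genes of calcium handling, which sets the strength of each beat, the summed density was 0.506 and 0.507 LPKM (0.472 to 0.516 elsewhere). Atp2a2, the calcium pump SERCA2 of the sarcoplasmic reticulum, had 30 and 24 positions, or 0.747 and 0.711 LPKM, above 0.297 to 0.677 in the other libraries, with a log2 difference of 0.55 ± 0.24 and an unadjusted p of 0.0234 (edgeR). Like other members outside the 3 with most positions per list, it is named after its values were seen. Ryr2, the calcium release channel, had 221 and 195 positions, or 0.484 and 0.508 LPKM, among 0.461 to 0.539. Cacna1c, the L-type calcium channel, had 0.952 and 0.806 LPKM, and heart 1 alone exceeded the highest of the others, 0.878. Pde4d, a cAMP phosphodiesterase, had 0.437 and 0.446 (0.416 to 0.497 elsewhere).

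The 25 genes of ion channels and conduction had 0.563 and 0.535 LPKM in sum (0.555 to 0.584 elsewhere), so that heart 2 was the lowest of the 12 libraries. No member reached an unadjusted p under 0.05. Nav2, Ank3 and Ank2 differed by 0.03 ± 0.09, -0.07 ± 0.10 and 0.10 ± 0.10 on the log2 scale. Ank3 and Ank2 anchor channels in the membrane. Nav2 codes for neuron navigator 2, which is not a channel, and the sum of the list includes it. The 24 genes of the intercalated disc and costamere, which couple muscle cells to each other and to the matrix, had 0.356 and 0.371 LPKM (0.347 to 0.384 elsewhere). Utrn, the dystrophin relative utrophin, had 0.388 and 0.408 LPKM, below 0.438 to 0.539 elsewhere, and with Popdc2 made up the members lower at an unadjusted p under 0.05. Cdh13, Ctnna3 and Sgcd differed by 0.07 or less on the log2 scale.

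Of 22 cardiac transcription factors, Gata4, which is needed to form the heart, was higher with 0.883 and 1.03 LPKM (0.553 to 0.984 elsewhere, log2 difference 0.38 ± 0.17) and Hand1 lower with 1 position in each heart library, both at an unadjusted p under 0.05 only. Tbx5 had 0.724 and 0.862 LPKM (0.503 to 0.856 elsewhere). Ppargc1a, Esrrg and Zfpm2 overlapped with the other libraries. Among 20 genes of cardiac hormones and stress, Corin, the protease that activates natriuretic peptides, had 0.575 and 0.578 LPKM (0.440 to 0.654 elsewhere), and Pde3a and Adra1a, a phosphodiesterase and an adrenergic receptor, differed by 0.15 ± 0.14 and 0.10 ± 0.16 on the log2 scale. None of the 20 reached an unadjusted p under 0.05.

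In energy metabolism, the 25 genes of fatty acid oxidation had 0.554 and 0.528 LPKM in sum (0.524 to 0.603 elsewhere). Acsl1, which activates fatty acids, had 27 and 32 positions, or 0.503 and 0.710 LPKM against 0.701 to 1.12, a log2 difference of -0.52 ± 0.20 (unadjusted p = 0.00981, edgeR). Cpt1a, an enzyme that links fatty acids to carnitine, and Cd36, a fatty acid carrier of the cell membrane, overlapped. The 20 genes of creatine kinase, myoglobin and energy use had 0.716 and 0.669 LPKM (0.597 to 0.764 elsewhere). Mb, the myoglobin gene, had 25 and 24 positions, or 0.861 and 0.984 LPKM, above 0.467 to 0.843, with a log2 difference of 0.54 ± 0.25 (unadjusted p = 0.0346, edgeR). Ogdh and Pfkm, enzymes of the citric acid cycle and of glycolysis, overlapped with the others, at 0.10 ± 0.21 and -0.10 ± 0.23 on the log2 scale.

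Genes of other heart cells gave like values. The 22 fibroblast and matrix genes had 0.806 and 0.747 LPKM (0.663 to 0.798 elsewhere). Fn1, fibronectin, had 1.04 and 0.979 LPKM, above 0.515 to 0.973, and Col4a2, a basement membrane collagen, 1.28 and 0.972 against 0.557 to 1.17. These were the 2 members higher at an unadjusted p under 0.05, while Fbn1, fibrillin, and Tgfbr3 differed by 0.01 ± 0.12 and 0.04 ± 0.13 on the log2 scale. The 20 endothelial and mural genes, with Vwf, Flt1 and Ptprb as the members of most positions, had 0.651 and 0.665 LPKM (0.557 to 0.676 elsewhere), and Myh11 was the member higher at that threshold.

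The 23 genes of base excision repair, the pathway that makes and removes AP sites, had 0.563 and 0.538 LPKM (0.429 to 0.575 elsewhere). Lig3, the ligase of this pathway, had 30 and 21 positions, or 1.57 and 1.31 LPKM, above 0.710 to 1.19, with a log2 difference of 0.65 ± 0.25 (unadjusted p = 0.0105, edgeR). Parp1, a sensor of strand breaks, had 1.21 and 0.899 LPKM (0.811 to 1.40 elsewhere), and Apex2 0.143 and 0.224 (0.0942 to 0.232 elsewhere). Lists of other tissues gave 0.445 and 0.458 LPKM for 25 brain neuron genes (0.425 to 0.487 elsewhere), 0.686 and 0.674 for 25 liver genes (0.637 to 0.733) and 0.694 and 0.683 for 25 blood and marrow genes (0.516 to 0.743). For 25 sperm and testis genes heart had 0.422 and 0.371 LPKM against 0.392 to 0.469. Ass1, a urea cycle enzyme of the liver list, was higher at an unadjusted p under 0.05, with 1.16 and 1.20 LPKM against 0.530 to 1.09. Rbfox1, Lsamp and Csmd1 of brain, Cps1 and Hnf4a of liver, Runx1, Ikzf1 and Kit of blood, and Dnah8, Spata16 and Dnah1 of sperm differed by -0.21 to 0.20 on the log2 scale.

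**Figure D5:**
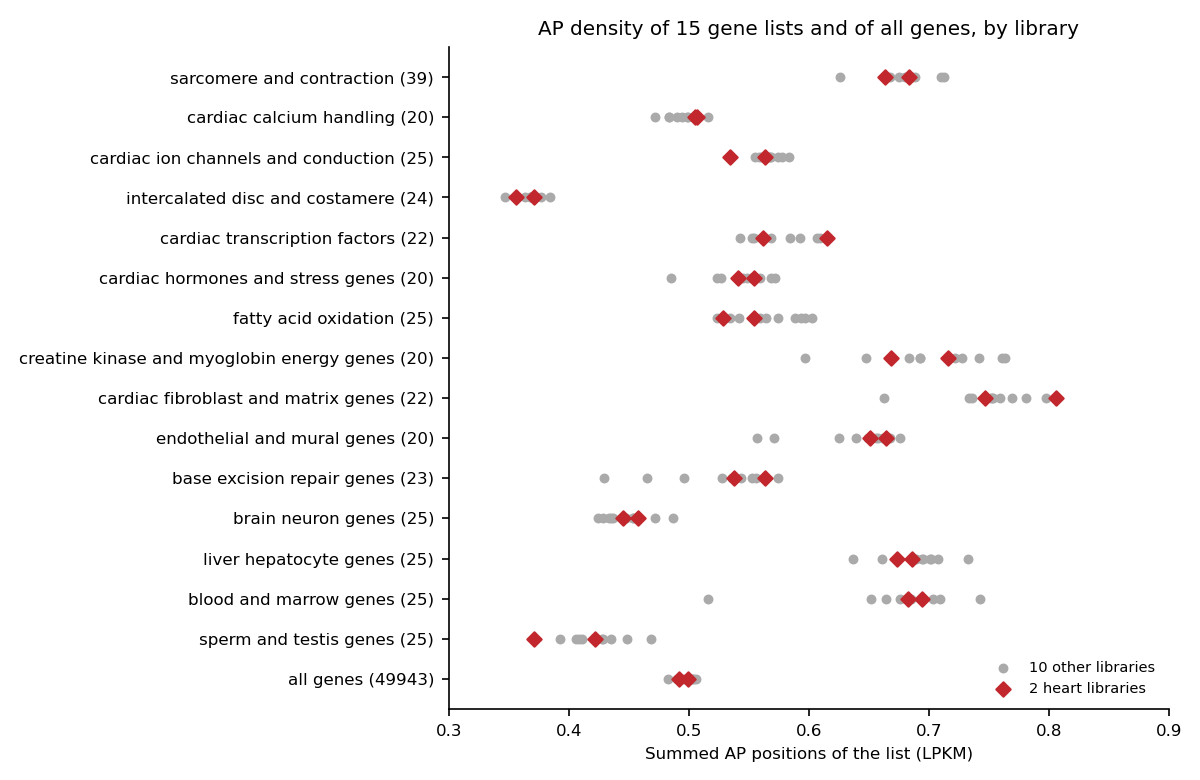
The summed density of AP positions over each gene list in LPKM (x axis, from 0.3) is shown for the 2 heart libraries (red diamonds) and the 10 other libraries (grey points), with the number of genes of a list in parentheses. In 15 lists and in all genes at least 1 heart library lies inside the range of the others.

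Single-strand breaks of heart, mapped by SSiNGLe in separate libraries of the same samples, are given beside AP sites in the same measures. Adenine stood at 6.47% and 6.21% of the break positions in promoters, against 41.1% and 40.9% of the AP positions. Breaks lay within 1 kb of gene starts in 3.40% and 3.28%, against 2.28% and 2.16%. They lay on the template strand of genes in 45.9% and 46.0%, against 49.1% and 49.5%. In the break libraries of the other tissues adenine stood at 4.46% to 7.18%. There 2.43% to 4.56% of the breaks lay near gene starts and 44.0% to 47.4% on the template strand, so heart lay inside these ranges. At equal depth within each assay 0.543% and 0.541% of the break positions and 2.00% and 1.87% of the AP positions recurred in another library of their assay. The assays were thinned to different depths, so these shares stand side by side without a test.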

How the data were processed

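Each library's file, as deposited by the authors, lists lesion nucleotides, their strand and an unnormalized count of reads or fragments, with no pooling of libraries. Build mm10/GRCm38 comes from the submitters' processing notes, and the aligner and filters are not given in the sources used here. Each position was counted once, since 0.340% to 0.929% of AP positions had a count above 1. Depth was 460719 to 963258 positions per AP library. Positions were assigned to the span of each of 49943 RefSeq genes (GRCm38.p6, no exons) and to 100 kb windows. Strand came from the promoter table and was known for 17492 of 21887 protein-coding genes. LPKM was positions times 1e+09 over gene length and library positions. The RNA samples were not analysed here.

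Genes and windows nonzero in at least 20% of the libraries were tested with edgeR 4.0.16 (quasi-likelihood, TMM, model of tissue, heart minus the mean of the other 5, Benjamini-Hochberg, threshold 0.05), with DESeq2 1.42.0 as an alternative in R 4.3.3. Single values were compared by two-sided exact permutation tests over the 2 and 10 libraries, whose smallest p is 0.0152. Log2 differences are heart minus the others, with a median of 0.0828 over all genes. The edgeR test was tried on simulated counts in which 200 features with a mean of at least 20 positions were changed in heart. Changes of 1.5-fold were recovered for 29.5% of genes and 24.5% of windows, and changes of 2-fold for 80% and 82.5%. False calls were 1 of 60 called genes and 5 of 54 called windows at 1.5-fold. At 2-fold they were 8 of 168 and 11 of 176. The labels do not say which library came from which mouse, so p-values measure the spread between libraries. Named are the 8 genes of smallest p in each direction (mean of at least 20 positions), 3 members with most positions per list, 5 windows per direction and the 5 densest genes of at least 10 kb; other genes were named after their values were seen, and a few that the rule or a list holds are not reported here. Members, lists and rules were chosen with earlier results of these data known. Alternatives were other scaling, filters, depth, gene sets and left-out libraries; those on the recorded base and the list members were chosen after seeing the data. Scripts ran in Python 3.11.15 (scipy 1.17.1, pandas 2.3.3, numpy 2.4.6).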

Additional observations from a re-analysis of the deposited data

How the results depend on the processing

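The count of genes called for heart against the other 5 tissues was 0 under every alternative run, as was the count of list members called: other scaling, DESeq2, other filters, summed counts, equal depth, autosomes only, protein-coding genes, positions inside 1 gene, recurrent positions removed, no sperm, 2 groups and each library left out. The count of windows ran from 0 to 1 when each library was left out (1 without liver replicate 1) and was 0 otherwise, 1 Mb windows included. The template strand share in the first 2 kb of genes changed sign without sperm (-0.199 percentage points) and in the first 10 kb (-0.227), and ran from -0.314 to 0.461 when each library was left out. On leaving out each library the heart difference ran from -0.661 to 0.103 percentage points for genes, from -0.00683 to 0.247 for genes over 500 kb, from -0.045 to 0.0683 for chromosome X, and from -0.674 to 0.43 for the variance to mean ratio, so their direction is not settled. The adenine difference ran from 2.68 to 3.13; its alternatives and those of the lists were chosen after seeing the data.

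With the replicate number as a block, the windows called against bone marrow went from 1 to 0, and so did the sum over the 5 tissues (0). The genes called stayed at 0, and the adenine difference of 2.89 had p = 0.0278 (exact permutation within numbers, adjusted p = 0.278). Deviations of same-numbered libraries had correlations of -0.109 to 0.0738 over genes and -0.145 to 0.087 over windows. Counting noise pulls such correlations toward 0, so they cannot exclude that the numbers mark pairs. The labels do not say what the number marks, and the numbers were not taken as pairs. The log2 difference of Ttn ran from 0.24 to 0.36, and no named gene or window changed sign. Depth limits short genes: the median gene held 3 and 2 positions in heart. With 2 heart libraries the exact test cannot pass an adjustment over 10 measures unless several reach its smallest p.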

Other observations

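At equal depth, the Spearman correlation of counts over 26165 windows of 100 kb was 0.865 between the heart libraries, 0.831 to 0.879 (median 0.865) between a heart library and one of another tissue, and 0.832 to 0.883 within the other tissues. For LPKM over 6928 genes it was 0.700 between the heart libraries and 0.611 to 0.751 (median 0.704) between heart and another tissue. These are correlations across windows and genes, which are not independent replicates and share gene length and base composition. The heart libraries were thus no more like each other than like the libraries of other tissues in these values, which is a description without a test.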
